A study of Sus scrofa with 67 samples.

Results

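In the endometrium, 71 of the 25322 genes of the count table had a higher mean level on day 12 than on day 9 of the oestrous cycle, no higher level on day 15, and similar levels on days 0 and 9. They were chosen by their measured levels. A level is given here in CPM, the usual scaling of counts by library size, that is the share of the total count of the library that fell on a gene, and the mean of a tissue and day was increased by 1 before ratios were formed. A gene was taken when this value on day 9 lay between 0.5 and 2 times that of day 0 in the endometrium, the ovary and the oviduct, when the endometrium on day 12 was at least 2.5 times day 9, and when day 12 was at least as high as day 15. Of all genes, 19593 met the condition on days 0 and 9. Days 3 and 6 were not used, so the rise on day 12 need not be the first: 4 members were at least 2.5 times as high on day 3 as on day 9, 2 were so on day 6, and 3 were at least as high on day 3 as on day 12. Of the 71 genes, 34 could be paired with a gene symbol and 37 are known here only by their Ensembl identifier.

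The libraries were made from poly-A RNA of the endometrium, ovary and oviduct of crossbred Landrace × Yorkshire gilts, young female pigs that had already cycled normally and for which no treatment is named. Tissues were taken at intervals of 3 days, from day 0, the onset of oestrous behaviour, to day 18, and the groups are labelled by tissue and day. By the methods of the study each day has its own gilts. An effect of day therefore cannot be told apart from one of the animals or of any batch. The endometrium, the lining of the uterus, was dissected free of the muscle layer, the oviduct was taken from its ampulla, and the ovary was taken whole from one side. The count table has 66 libraries, 22 of each tissue, with 2 to 4 in each of the 21 groups, and total counts per library between 8962103 and 13442083. The endometrium has 3 libraries on each day except day 15, which has 4, and 1 more sample labelled as endometrium of day 12 was not used here. The labels do not name the gilt behind a library. By the methods of the study the largest groups hold more libraries than gilts, although its design text counts more animals, so libraries of a group may share a gilt. The p-values then measure only the spread between these libraries, which may in part be technical.

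After ovulation the corpora lutea secrete progesterone, and the pig endometrium is under progesterone until the late luteal phase, when, without embryos, it releases prostaglandin F2α and the corpora lutea regress. Glands and surface epithelium of the progesterone-primed endometrium secrete proteins, ions and enzymes into the uterine lumen, which would feed an embryo before attachment. Days 12 and 15 of the cycle span the end of this phase.

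Marker lists set the endometrium libraries apart from the other tissues. Summed over the marker list, the granulosa and luteal markers reached 7.79 CPM at most in any endometrium library, and the epithelium markers EPCAM, KRT8, KRT18 and CDH1 stood between 1841 and 4855 CPM. The epithelium markers overlapped with the oviduct (1023 to 4080 CPM). The oviduct markers FOXJ1 and OVGP1 did not, at 64.8 to 658 CPM in the endometrium and 2551 to 204332 CPM in the oviduct. In the ovary libraries the granulosa and luteal markers reached 430 to 10748 CPM, with the lowest value in library 1 of day 0, without which the rule gave 73 members, 68 of them among the 71. Epithelium markers were at 784, 1011 and 707 CPM in ovary libraries 1, 3 and 4 of day 15 and at 763 CPM in library 1 of day 18, against 3.02 to 44.1 CPM in the other ovary libraries. Stroma markers were higher on day 12 than on day 9 of the endometrium. VIM, COL3A1 and DCN summed to between 4476 and 9537 CPM in the day 9 libraries and to between 12941 and 15149 CPM on day 12. COL3A1, a fibrillar collagen, rose 1.21 on the log2 scale from day 9 to day 12 (edgeR quasi-likelihood test, adjusted p = 0.00854) and was the only called gene of these 3 markers. The sum of the stroma markers did not follow the members on all days. In the endometrium it was highest on day 0, at 18639 to 21934 CPM, and on day 18 it was at 8468 to 14343 CPM. Smooth muscle markers summed to between 199 and 236 CPM on day 9 and to between 254 and 562 CPM on day 12, and MYH11, the smooth muscle myosin, was the called gene among 4, with 1.63 on the log2 scale (adjusted p = 0.0408). The epithelium markers (2626 to 2819 CPM on day 9, 2196 to 3515 CPM on day 12) and the immune cell markers (21.8 to 27.3 CPM and 21.5 to 28.9 CPM) overlapped between the days. In these lists, and among the red blood cell, granulosa and luteal, and oviduct markers, edgeR and DESeq2 called 0 genes between the days, and an unadjusted p under 0.05 was reached by 1 epithelium marker and 1 granulosa and luteal marker. No member with a symbol is in any of these lists. The part of tissue composition in the levels of the members was not tested. In tissue RNA, fewer cells of a type and less RNA per cell cannot be told apart.

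Library 2 of day 15 stood apart from the other libraries of its day. In that library 51 of the 71 members were at or above the lowest day 12 library, against 27, 21 and 20 members in libraries 1, 3 and 4. Its summed level of steroid receptor genes was 2965 CPM, within the 2281 to 3034 CPM of the day 12 libraries. Its prostaglandin genes summed to 549 CPM, also within the range of day 12 (495 to 825 CPM), while the median of the day 15 libraries was 1637 CPM. Its stroma markers, at 8608 CPM, were below the day 12 libraries (12941 to 15149 CPM) and the lowest of day 15, and its interferon genes, at 589 CPM, were above those of day 12 (419 to 530 CPM). Results for day 15 are therefore given with and without it.

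The level of the set in a library was summarised as the mean over the 71 members of log2(CPM + 1), less the mean of days 3 and 6 of that tissue. In the endometrium it was 0.07 ± 0.03 on day 0 and 0.14 ± 0.03 on day 3 (mean ± SD, n = 3 libraries each). It was −0.14 ± 0.09 on day 6 and −0.02 ± 0.12 on day 9 (n = 3 each). On day 12 the 3 libraries stood at 2.24, 1.5 and 2.0. On day 15 they stood at 0.86, 1.51, 0.65 and 0.50, and on day 18 at 0.58, 0.07 and 0.15. The day 12 libraries were thus above every library of days 0 to 9, library 2 of day 15 fell at the lowest day 12 library, and day 18 overlapped with day 9. The same mean over all genes was −0.03 on day 12. In the ovary the members reached 0.25 ± 0.15 (n = 4) on day 12 and 0.32 ± 0.16 (n = 4) on day 15, and in the oviduct 0.18 ± 0.13 (n = 4) on day 12. The mean over all genes was 0.01, 0.16 and 0.04 in those groups. As the endometrium values of days 0, 9, 12 and 15 chose the members, these levels are a description.

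**Figure D1:**
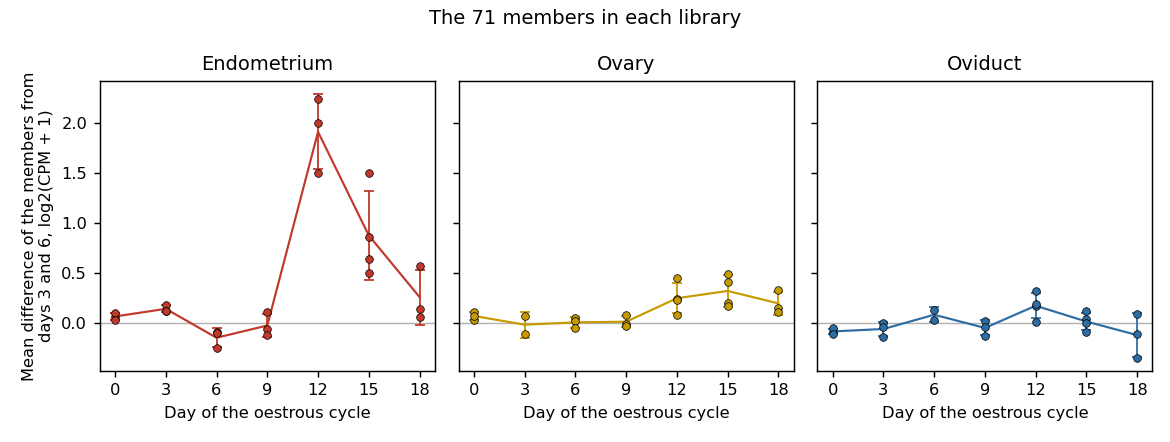
The mean difference of the 71 members from days 3 and 6 of their tissue, in log2(CPM + 1), is plotted against the day of the oestrous cycle. Points are libraries, lines join the means and bars are SD. The 3 endometrium libraries of day 12 lie between 1.5 and 2.24, and no ovary or oviduct library exceeds 0.50.

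The day 12 over day 9 ratio of the members ranged from 2.51 to 45.3 with a median of 3.29. It was at least 5 in 16 members, between 3 and 5 in 27 and between 2.5 and 3 in 28. The member just inside the threshold was SHF at 2.51, and the gene just outside it was ENSSSCG00000029057 at 2.49. At the day 15 condition, ENSSSCG00000028127 was just inside with a day 12 over day 15 ratio of 1.04, and FUT2 was just outside at 0.988. In 57 members all 3 day 12 libraries were above all day 9 libraries, in 12 members 2 of them were and in 2 members 1 was. Among all genes with a count in these libraries this held for 12.1%, and as the same libraries chose the members, nothing is read from the difference. The endometrium mean peaked on day 12 for 66 members, while 3 members peaked on day 3 and 2 on day 18. In all, 13 members had under 10 counts in at least 1 day 12 library, 10 of them without a symbol, so their ratios rest on few reads.

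**Figure D2:**
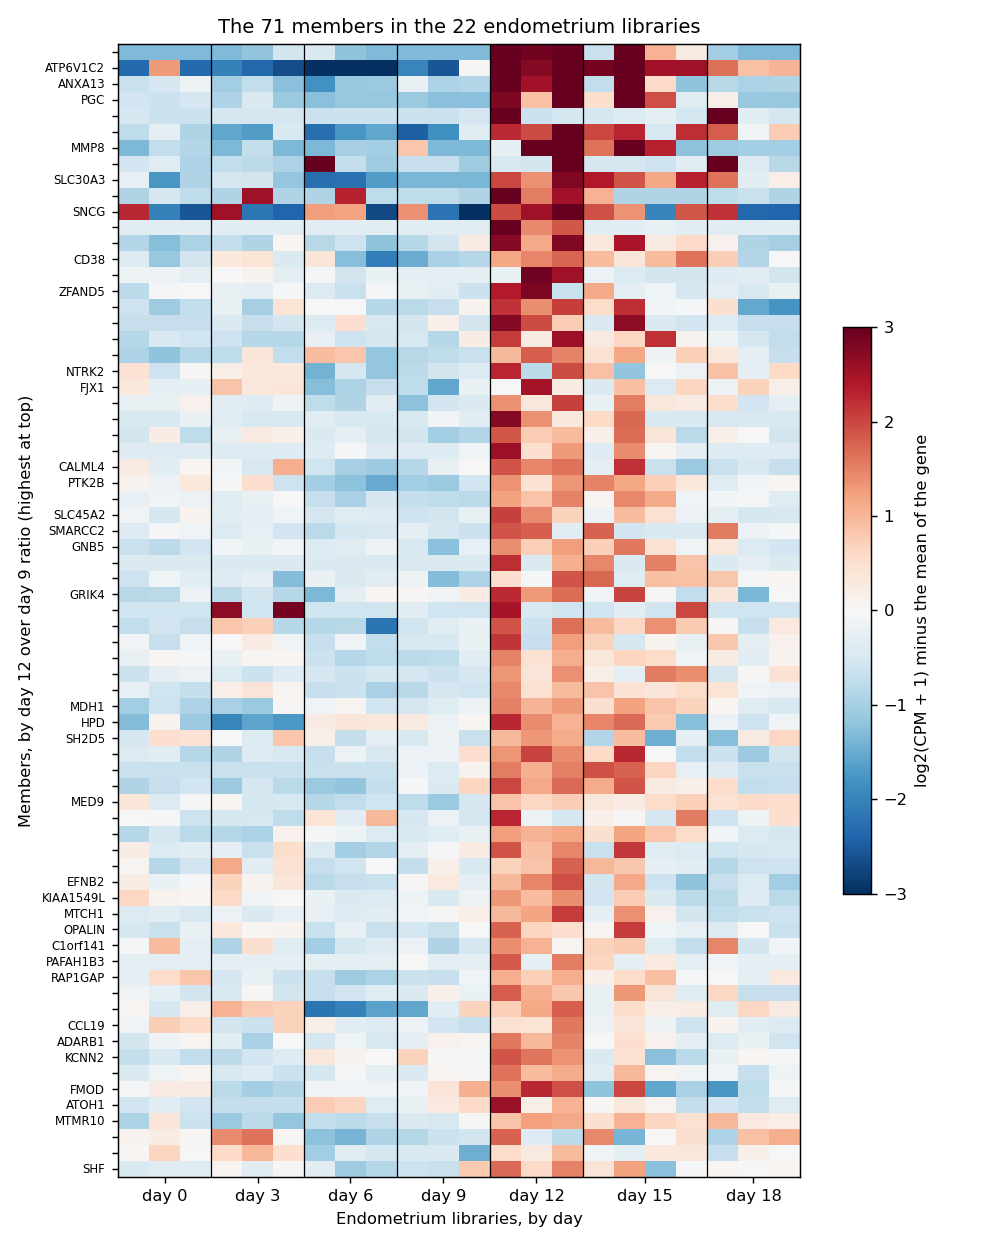
Each line is a member, ordered by its day 12 over day 9 ratio with the highest at the top, and each column is an endometrium library, ordered by day. Colour gives log2(CPM + 1) minus the mean of the gene, with the scale ending at 3 in either direction. All 3 columns of day 12 exceed every column of the other days in 5 lines. In 24 lines 2 of them do, in 26 lines 1 does and in 16 lines 0 do. The second column of day 15 resembles the day 12 columns more than its neighbours do.

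The largest rise of a named member was that of ATP6V1C2, a subunit of the vacuolar proton pump that acidifies organelles and secretions. It stood at 7.43, 4.65 and 33.2 CPM in the 3 day 9 libraries and at 584, 226 and 405 CPM on day 12. It then stood at 245, 383, 191 and 192 CPM on day 15 and at 104, 60.6 and 66.3 CPM on day 18. On day 6 it was at 2.01, 1.2 and 2.76 CPM. ATP6V1C2 therefore did not return to its early level within the days sampled, and its lowest day 18 library was above every library of days 3, 6 and 9. On day 0 its libraries were at 5.66, 79.4 and 5.62 CPM, so library 2 of that day was as high as those of day 18.

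SLC30A3 (ZnT3), which loads zinc into vesicles, had a similar course, with 4.17, 4.16 and 4.17 CPM on day 9 and 52.7, 33.5 and 91.0 CPM on day 12. It was at 70.3, 48.6, 29.1 and 66.3 CPM on day 15 and at 40.3, 9.82 and 14.5 CPM on day 18. The day 12 and day 15 libraries of SLC30A3 overlapped, and those of day 18 were all above those of day 6 (1.79, 1.85 and 3.21 CPM).

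ANXA13, an annexin that binds membrane phospholipids in the presence of calcium, was at 2.95, 1.39 and 1.53 CPM on day 9 and at 75.8, 25.7 and 112 CPM on day 12. On day 15 it was at 1.77, 48.4, 5.86 and 1.02 CPM, with only library 2 in the range of day 12. On day 18 all 3 libraries of ANXA13, at 1.60, 1.40 and 1.48 CPM, were within the range of days 0 to 9. PGC encodes progastricsin, the precursor of an aspartic protease. It had a single count over the 3 day 9 libraries (0.102, 0 and 0 CPM), stood at 15.7, 3.41 and 45.8 CPM on day 12 and at 2.46, 23.3, 8.06 and 0.848 CPM on day 15. The day 12 and day 15 libraries of PGC overlapped.

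The protease MMP8, neutrophil collagenase, was not reached by the rule for named genes and was chosen after its values were seen. Its mean rose on day 12, but its libraries did not move together: they were at 3.56, 0 and 0 CPM on day 9 and at 1.12, 51.3 and 28.8 CPM on day 12. The day 15 libraries were at 6.98, 55.5, 11.7 and 0.0848 CPM. Library 1 of day 12 was thus below the highest day 9 library for MMP8. The largest ratio of all members was that of ENSSSCG00000021334, also outside that rule, which had no count on day 9 and stood at 44.3 ± 27.9 CPM (SD, n = 3) on day 12. With a floor of 3 counts per library, it was at least 146-fold higher.

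**Figure D3:**
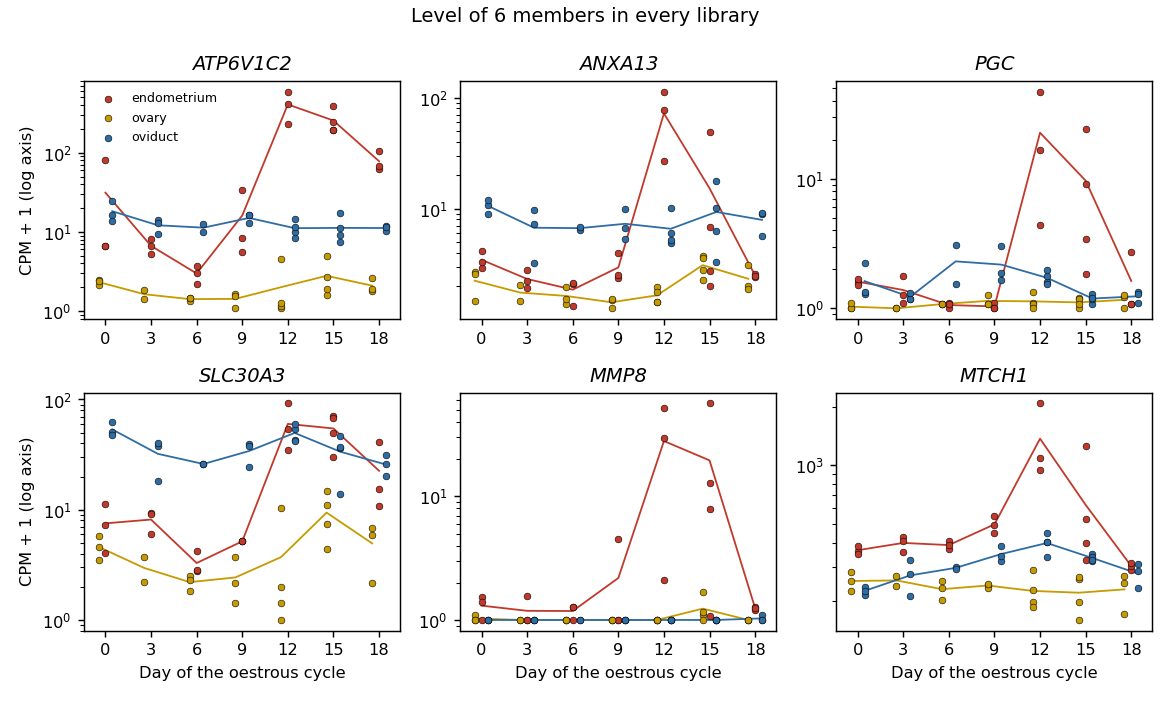
CPM + 1 of ATP6V1C2, ANXA13, PGC, SLC30A3, MMP8 and MTCH1 is plotted on a log axis against the day of the cycle for each library of the endometrium (red), ovary (yellow) and oviduct (blue), with lines through the means. In the endometrium the day 18 libraries of ATP6V1C2 and SLC30A3 are above those of day 6, whereas ANXA13, PGC and MTCH1 are back near their early levels. MMP8 differs widely between libraries of day 12 and of day 15.

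Several other members act in calcium or membrane signalling. CALML4, a calmodulin-like protein, was at 4.68, 7.82 and 9.26 CPM on day 9 and at 36.8, 27.4 and 30.6 CPM on day 12. PTK2B (PYK2), a tyrosine kinase activated by calcium, was at 36.9, 34.7 and 50.7 CPM and at 196, 102 and 191 CPM. CD38, an enzyme that consumes NAD and forms a calcium-mobilising messenger, was at 2.24, 3.66 and 4.07 CPM and at 19.4, 24.2 and 29.9 CPM. In CALML4, PTK2B and CD38 the libraries of the 2 days did not overlap. KCNN2, a potassium channel opened by calcium, rose from 3.56, 1.68 and 1.73 CPM to 9.42, 7.47 and 6.17 CPM and was at 1.08, 2.78, 0.183 and 0.594 CPM on day 15, below its day 12 libraries without overlap.

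Receptors, ligands and their signalling proteins included GRIK4, a subunit of kainate-type glutamate receptors, with 11.9, 10.7 and 13.8 CPM on day 9 and 58.0, 29.4 and 39.4 CPM on day 12. EFNB2, the membrane-bound ligand ephrin-B2, was at 24.8, 30.2 and 20.1 CPM and at 48.5, 69.3 and 95.9 CPM. GNB5, a G protein beta subunit, was at 61.9, 35.9 and 73.8 CPM and at 231, 144 and 210 CPM. The libraries of day 12 were above those of day 9 in each of GRIK4, EFNB2 and GNB5. CCL19, a chemokine that attracts lymphocytes and dendritic cells through CCR7, was at 6.51, 4.65 and 4.17 CPM and at 10.6, 10.24 and 24.3 CPM, but on day 0 it was at 6.78, 13.1 and 11.4 CPM, which overlaps with day 12. RAP1GAP, which switches off the small GTPase Rap1, rose from 42.3, 40.5 and 60.5 CPM to 142, 110 and 143 CPM. Its highest day 15 library, at 124 CPM, lay within the range of day 12.

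Among enzymes, MDH1, the cytosolic malate dehydrogenase, was at 39.7, 43.9 and 50.9 CPM on day 9 and at 163, 116 and 138 CPM on day 12. HPD, an enzyme of tyrosine breakdown, was at 7.02, 4.95 and 6.00 CPM and at 30.9, 17.0 and 12.7 CPM. HPD had already differed earlier in the cycle, with 0.715, 1.23 and 1.04 CPM on day 3 and 6.97, 7.67 and 7.31 CPM on day 6. ADARB1, an enzyme that edits adenosines in RNA, was at 14.2, 19.5 and 18.8 CPM on day 9 and at 54.9, 36.4 and 51.6 CPM on day 12, and all its day 15 libraries, at 14.3 to 25.7 CPM, were below those of day 12. MTCH1, a protein of the mitochondrial outer membrane, was at 450, 492 and 545 CPM on day 9 and at 941, 1088 and 2074 CPM on day 12. On day 15 MTCH1 was at 396, 1248, 527 and 327 CPM, and only library 2 lay in the range of day 12.

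FJX1, a homologue of the fly protein four-jointed, rested on a single library: it was at 7.73, 4.06 and 12.0 CPM on day 9 and at 14, 82.6 and 16.8 CPM on day 12, and library 1 of day 3 reached 25.8 CPM. SLC45A2, a transporter known from pigment cells, was at 0.611, 0.693 and 1.12 CPM and at 9.24, 5.65 and 2.90 CPM, with no overlap between the 2 days. ATOH1, a transcription factor that drives secretory and sensory cell fates, was low throughout: it had no count on day 3 and stood at 8.90, 0.853 and 2.36 CPM on day 12, so 1 library carried most of its mean. The other named members with a symbol, SH2D5, MED9, KIAA1549L, OPALIN and C1orf141, had ratios between 2.73 and 2.93. MED9 belongs to the Mediator complex, which links transcription factors to RNA polymerase II, and it was at 0.509, 0.198 and 0.814 CPM on day 9 and at 3.63, 2.99 and 3.27 CPM on day 12.

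SNCG (γ-synuclein) differed from the other members. Its endometrium libraries stood at 26.5, 1.29 and 0.204 CPM on day 9 and at 40.0, 60.8 and 117 CPM on day 12, but at 49.3, 1.57 and 0.789 CPM on day 0 and at 60.8, 1.34 and 1.04 CPM on day 3. Over all tissues and days, SNCG was at or below 2.27 CPM in 32 libraries and at or above 13.9 CPM in 34, with none between. Among the 23 combinations of a day and a library number with 2 or 3 tissues, the tissues were on the same side of this gap in 19, high in 10 and low in 9. In the endometrium 1 of 3 libraries was high on days 0, 3, 9 and 18 and 2 of 3 on day 6. All 3 were high on day 12, as were 3 of 4 on day 15. The day 12 over day 9 ratio of 7.15 of SNCG therefore reflects the number of high libraries as well as their level. The highest library of a group was at least 10 times the lowest, on CPM + 1, in 20 of 21 groups for SNCG, in 8 for ENSSSCG00000023945 and in 7 for ENSSSCG00000028568, in 1 to 4 groups for 18 members and in none for 50.

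The 3 libraries of day 12 were not alike either. Library 1 was the highest of the 3 for 41 members and library 2 the lowest for 44, and the ratio of the highest to the lowest had a median of 2.33 over the members. ENSSSCG00000007410 rested on library 1 (60.7, 0 and 0.0908 CPM), which was also true on day 18 (74.8, 0.263 and 0.0871 CPM), and was chosen after its values were seen.

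By day 15 the members had fallen to a median of 55.0% of day 12, with a range of 5.46% to 95.8%, and by day 18 to 34.0%. On day 15, 41 members were at or above 50% and 30 were below it. Without library 2 of day 15 the median was 41.7%, and 28 members were at or above 50% and 43 below. Taken library by library, the median over members was 46.6%, 76.9%, 40.0% and 34.2% in libraries 1 to 4. Library 2 was the highest of the 4 for 43 members. The day 15 condition was part of the rule, so that no member could exceed 100%.

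Days 6 and 18 and day 3 of the endometrium were not used by the rule and could be tested. Between day 6 and day 18, 11 of the 68 members that passed the filter on low counts rose and 0 fell (edgeR quasi-likelihood test, Benjamini-Hochberg adjusted p under 0.05 over all genes). Over all genes 23.5% were called, 11.8% higher and 11.7% lower, against 16.2% and 0% of the members. The median log2 fold change was 0.31 over the members and −0.00 over all genes. The filter covered all days of the endometrium, so members could pass it by day 12 alone: 8 members had at most 3 counts in every library of days 6 and 18, and 2 had none. With the filter and the fit on these 2 days only, 43 members were tested, 11 rose and MTCH1 fell (27.9%, against 25% of all genes). The share of members called thus depends on the filter and the fit, which were changed together. Nothing is read from this share or from the median over the members. Cell type markers changed in the same comparison: all 3 stroma markers rose (VIM 2.13, COL3A1 1.03 and DCN 0.74 on the log2 scale), as did EPCAM (0.87), CD68 (0.99) and DES (1.79), and KRT8 fell by 2.02. Their part in the change of the members was not tested.

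The members that rose from day 6 to day 18 were led by ATP6V1C2, with a log2 fold change of 5.16 ± 0.957 (SE, adjusted p = 0.00129), and SLC30A3, with 3.14 ± 0.594 (adjusted p = 0.00147), whose levels are given above. MED9 rose by 2.10 ± 0.434 (adjusted p = 0.00258), from 0.422, 0.555 and 0.713 CPM to 2.56, 2.81 and 2.70 CPM. MTMR10, a member of the myotubularin family, rose by 1.18 ± 0.285 (adjusted p = 0.00657), from 98.4, 95.3 and 102 CPM to 330, 202 and 189 CPM. PTK2B rose by 1.02 ± 0.313 (adjusted p = 0.0242) and RAP1GAP by 0.83 ± 0.258 (adjusted p = 0.0263), calls that were lost in 3 and 4 alternatives. In each of these 6 genes the libraries of the 2 days did not overlap. The other 5 that rose have no symbol, and the largest log2 fold change among them was 3.09 ± 1.09 (adjusted p = 0.0461) in ENSSSCG00000009871, a call lost in 6 alternatives. Leaving out library 2 or 3 of day 6, or library 1 of day 18, left 7 calls in each case.

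Between day 3 and day 6, 2 members rose and 5 fell of 68 tested, which is 2.94% and 7.35%. Over all genes 18.9% were called, 8.86% higher and 10% lower. With the filter and the fit on these 2 days only, 44 members were tested, 3 rose and 11 fell (31.8%, against 21.1% of all genes). This share thus also depends on the filter and the fit, which were changed together. CD68 and PTPRC, the immune cell markers, fell by 2.09 and 1.76 on the log2 scale from day 3 to day 6, VIM fell by 1.39 and KRT8 rose by 1.29, all called, and their part in the change of the members was not tested. The members that rose were HPD, by 3.07 ± 0.661 on the log2 scale (SE, adjusted p = 0.00355), and ATOH1 (adjusted p = 0.0133), which went from no count to 1.79, 1.57 and 0.268 CPM, at least 3.97-fold higher with a floor of 3 counts per library. PTK2B fell by 1.08 ± 0.313 (adjusted p = 0.0213, lost in 4 alternatives), from 73.5, 108 and 48.7 CPM to 36.8, 32.0 and 25.9 CPM. The other 4 that fell have no symbol. ENSSSCG00000007369 fell by 3.21 (adjusted p = 0.000517), from 18.2, 14.7 and 14 CPM to 1.06, 1.29 and 2.05 CPM, and ENSSSCG00000004623 fell by 2.30 (adjusted p = 0.00669). Both comparisons hold the day 6 libraries: PTK2B, ENSSSCG00000009871, ENSSSCG00000007369 and ENSSSCG00000004623 were lower on day 6 than on day 3 and higher on day 18 than on day 6, and the fits share those libraries. The number of calls, 7, was 4 without library 2 of day 3, 11 with DESeq2 and 14 with only these days fitted.

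Day 12 was compared with day 6 in the ovary and the oviduct, whose days 6 and 12 the rule did not use. In the ovary 49 members passed the filter and 0 were called by the edgeR quasi-likelihood test, where 0% of all genes were called. With an unadjusted p under 0.05, 6 members (12.2%) and 7.86% of all genes passed, and DESeq2 called 0 members. SHF had the lowest p of these members, with a log2 fold change of 1.54 (adjusted p = 0.401). In the oviduct 54 members were tested and 0 were called by edgeR, again with 0% of all genes, 9 members (16.7%) and 5.53% of all genes had an unadjusted p under 0.05, and DESeq2 called 0 members. The median log2 fold change of the members was 0.28 in the ovary, against 0.06 over all genes, and 0.04 in the oviduct, against 0.03. The oviduct has only 2 libraries on day 6. By mean CPM + 1, day 12 was at least 2.5 times day 6 for 5 members in the ovary and for 4 in the oviduct. It was at most 0.4 times day 6 for 0 members in the ovary and 1 in the oviduct. These counts were not set against all genes. For SMARCC2 the ratio was 4.91 in the ovary and 3.25 in the oviduct. By the edgeR and DESeq2 tests a change of the members on day 12 was not detectable in these tissues, which does not show that there was none.

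The tissues were compared over days 3, 6 and 18, which the rule did not use. The filter was applied over all libraries, day 12 included, and all 71 members passed it, although 6 of them had at most 3 counts in every endometrium and ovary library of these days. Against the ovary, 26 members were higher in the endometrium and 8 lower (36.6% and 11.3%). Of all genes 55.6% were called, 28.8% higher and 26.8% lower. With only the compared groups filtered and fitted, 56 members were tested, 23 were higher and 9 lower (57.1%, against 57.5% of all genes). Without ovary library 1 of day 18, whose epithelium markers were high, 25 were higher and 7 lower. The median log2 difference was 0.64 over the members and 0.03 over all genes. Against the oviduct, 16 members were higher and 11 lower (22.5% and 15.5%). Of all genes 46% were called, 22.2% higher and 23.9% lower, and the medians were 0.18 and 0.03. With only the compared groups, 14 of 56 were higher and 12 lower (46.4%, against 50.3% of all genes). The member medians of both comparisons are over all 71 members, which could pass the filter by day 12 alone. As the members were chosen by their endometrium levels, nothing is read from these medians. The endometrium libraries are the same in both comparisons, and the fits did not pair libraries that may come from the same gilt.

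HPD was higher in the endometrium than in the oviduct by 3.66 ± 0.412 on the log2 scale (SE, edgeR adjusted p = 9.33e-10) and higher than in the ovary, where its 8 libraries of these days held 8 counts in all (adjusted p = 5.81e-12). C1orf141 was at 7.21 ± 5.80 CPM (SD, n = 9) in the endometrium and had 2 counts in all over the 8 oviduct libraries (adjusted p = 2.23e-10). RAP1GAP was higher by 1.95 ± 0.388 against the oviduct (adjusted p = 4.64e-05) and by 4.40 ± 0.459 against the ovary (adjusted p = 1.79e-11). GRIK4 was higher by 1.22 ± 0.364 (adjusted p = 0.00515) and by 2.84 ± 0.408 (adjusted p = 6.49e-08), and CD38 by 1.16 ± 0.310 (adjusted p = 0.00186) and by 0.73 ± 0.305 (adjusted p = 0.0391), the last a call lost in 13 alternatives. HPD, C1orf141, RAP1GAP and GRIK4 were thus called higher in the endometrium than in both other tissues, over days that for HPD include its rise from day 3 to day 6.

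Other members were lower in the endometrium than in another tissue on those days. ANXA13 was lower in the endometrium than in the oviduct, with a log2 difference of −2.47 ± 0.461 (SE, edgeR adjusted p = 1.68e-05), and its difference from the ovary was 0.12 ± 0.499 (adjusted p = 0.871). SLC30A3 was lower than in the oviduct, with a log2 difference of −2.06 ± 0.4 (adjusted p = 3.39e-05), and higher than in the ovary, with 1.43 ± 0.434 (adjusted p = 0.00444). On day 12 the endometrium libraries of SLC30A3, at 33.5 to 91.0 CPM, overlapped with those of the oviduct, at 40.7 to 59.2 CPM. KIAA1549L was lower than in both, with −2.06 ± 0.226 against the oviduct (adjusted p = 2.10e-10) and −0.53 ± 0.226 against the ovary (adjusted p = 0.0435, lost in 11 alternatives). KCNN2 was lower than in the ovary, with −3.35 ± 0.384 (adjusted p = 2.56e-10), and its difference from the oviduct was −0.25 ± 0.396 (adjusted p = 0.645). MED9 was also lower than in both, with −1.16 ± 0.205 (adjusted p = 6.47e-06) against the oviduct and −1.29 ± 0.204 (adjusted p = 4.67e-07) against the ovary. FJX1 was lower with −0.90 ± 0.345 (adjusted p = 0.0301, lost in 5 alternatives) against the oviduct and −1.30 ± 0.346 (adjusted p = 0.0013) against the ovary. Unlike these, ATP6V1C2 was higher than in the ovary by 3.52 ± 0.501 (adjusted p = 5.11e-08), while its difference from the oviduct was −0.28 ± 0.391 (adjusted p = 0.586). That value averages days that differ, as on day 18 the endometrium libraries of ATP6V1C2 (60.6 to 104 CPM) were all above those of the oviduct (9.21 to 11.0 CPM).

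**Figure D4:**
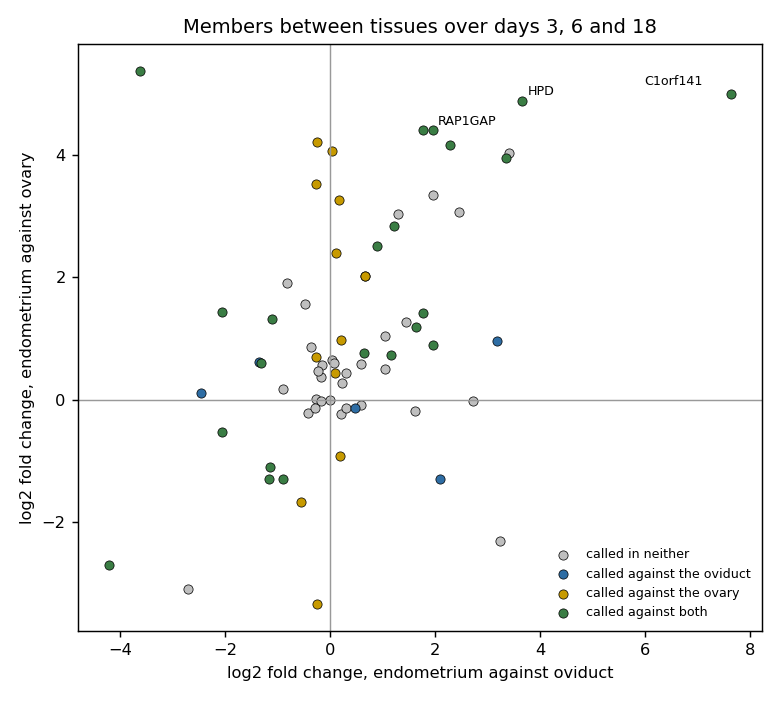
The log2 fold change of each of the 71 members between endometrium and oviduct (horizontal axis) is plotted against that between endometrium and ovary (vertical axis) over days 3, 6 and 18, coloured by the comparisons in which the member was called. Points in the upper right, among them HPD, RAP1GAP and C1orf141, are higher in the endometrium than in both other tissues, and points in the lower left are lower than in both.

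None of the members with a symbol is in the pathway lists either. The 37 members without one could not be looked up, and only 10 of the 14 prostaglandin genes, 6 of 10 secreted genes, 4 of 5 calcium genes and 5 of 6 interferon genes were found in the table. Of the prostaglandin genes, 0 of 10 tested were called between days 9 and 12 of the endometrium by the edgeR quasi-likelihood test, 4 had an unadjusted p under 0.05 and DESeq2 called 2. Of the calcium genes 0 of 4 were called by edgeR (2 unadjusted, 1 by DESeq2), of the steroid receptors 0 of 5 (0 unadjusted, 0 by DESeq2) and of the genes secreted by the uterus 0 of 4 (1 unadjusted, 0 by DESeq2). Of all genes 4.8% were called by edgeR, 2.43% higher and 2.37% lower. Of 5 interferon genes, IRF1, a transcription factor induced by interferon, rose by 0.99 on the log2 scale (adjusted p = 0.0191). Along the chromosomes, 33 of the 34 members with a symbol were found among the RefSeq genes of Sscrofa11.1, on 15 chromosomes. No 2 of them were direct neighbours, and the closest pair, SH2D5 and RAP1GAP, lay 5 genes apart.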

How the data were processed

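The authors trimmed the first 13 bases of the paired-end reads and mapped them with TopHat to the pig genome Sus scrofa 10.2 with its Ensembl transcriptome. The deposited values are raw counts of reads for each Ensembl gene in each library, neither normalized nor pooled. featureCounts is named in the submitters' processing notes. Whether counting used strand is not given in the sources used here, so reads of overlapping and antisense genes cannot be told apart. Columns were assigned to a tissue and day by name, and library numbers are those of the table.

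The members and lists were chosen with earlier results of these data known. Symbols were paired for 11804 of 25322 identifiers from a reference table. CPM used the column total, and 3 counts, taken as a floor, correspond to 0.223 to 0.335 CPM. The values after ± are SDs over libraries or SEs of the fits, and both include the spread between libraries. Floors cover counting error only, and the reads carry no molecular identifiers. Levels are not scaled by gene length and were not compared between genes. Tests used edgeR 4.0.16 in R 4.3.3 (TMM, filterByExpr, robust quasi-likelihood F-test) with Benjamini-Hochberg adjustment over all genes tested, called at 0.05. Each tissue was fitted in a model with day as a factor, and tissues were compared in a model of all libraries without a block. The named genes were the 25 members with a symbol and the largest day 12 over day 9 ratio, among those with at least 10 counts in every day 12 library and no overlap with day 9, plus, in each tested comparison, the called members with the 3 largest rises and 3 largest falls. Of the genes in the 12 lists, 17 were not found in the table, among them COL1A1, STAR and CYP19A1.

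Counts for day 18 against day 6 were simulated over 15100 genes, with 200 changed and the same dispersion of 0.1 for every gene. Of these, 84 of 100 genes changed 4-fold and 10 of 100 changed 2-fold were recovered, with 2 false calls. In the data 23.5% of genes were called in this comparison, so the simulated recovery is not the power of these data. Among 74 pairs of libraries of a group no pair was identical, and the chi-squared statistic over its degrees of freedom was 10.8 to 349. Libraries of the same day and number in endometrium and oviduct deviated together in 8 of 8 pairs (r between 0.111 and 0.281). In endometrium and ovary r was over 0.1 in 6 of 8 pairs. Between different days this held for at most 1 of 3 pairs in a comparison. The reported tissue comparisons did not pair libraries, and a block for day and number was used only as an alternative. Alternatives were DESeq2's size factors, no filter, DESeq2 1.42.0, a fit of just the compared groups, a block for the replicate number, other offsets of the rule, and leaving out each library. Leaving out library 2 of day 15 for the day 15 level, and ovary library 1 of day 0 for the rule, was chosen after seeing the data. No sequences are shown, as no sequence table was used here.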

Additional observations from a re-analysis of the deposited data

Results flagged for a closer look

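In 6 of the 35 groups of 4 libraries examined, a library lay far from the others, as measured by its gap to the nearest library divided by the range of the group, where 0.829 is the critical value for 4. The 30 named genes were examined only on day 15 of the endometrium, so a flag on a gene could fall on no other day. Their groups are the same 4 libraries each time. The rate of about 1 in 20 by chance holds for independent groups and cannot be applied here. All 6 flags were on named genes, and library 2 was the high library in each. The rule also used the day 15 values. The ratio was 0.898 for ANXA13, 0.914 for CALML4 (7.38, 46.3, 5.50 and 3.73 CPM) and 0.877 for GRIK4 (10.9, 50.3, 11.9 and 6.53 CPM). It was 0.858 for EFNB2 (16.2, 54.2, 15.5 and 9.92 CPM), 0.857 for KIAA1549L (3.84, 11.3, 4.31 and 3.14 CPM) and 0.937 for OPALIN (0.688, 5.85, 0.458 and 0.339 CPM). The 6 genes share that library and are not independent of each other.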

How the results depend on the processing

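With 3 libraries per group, the depth and the spread between libraries limit the detection of changes of about 2-fold. The number of members moved with the rule: it was 105 with an offset of 0.1 (42 of the 71 among them), 53 with an offset of 5 (34 shared), 71 with TMM library sizes (65 shared) and 76 with medians (47 shared), and it ranged from 64 to 95 when an endometrium library was left out. Between 64 without library 1 of day 12 and 95 without library 2 of day 12, 50 and 66 of the 71 were shared. Calls between day 6 and day 18 ranged from 7 to 11 without a library, against 11, and were 7 without library 2 or 3 of day 6 or library 1 of day 18. Calls between day 3 and day 6 were 7, but 11 with DESeq2 (3 higher, 8 lower), 14 when only these groups were fitted (3 higher, 11 lower) and 4 to 10 without a library, with 4 without library 2 of day 3. Without a library, calls stayed at 0 in the ovary and the oviduct and ranged from 25 to 29 against the oviduct and from 27 to 34 against the ovary. In the oviduct a lone day 6 library was assumed to vary like the other groups. The cause of these differences was not tested. With the replicate number as a block, the numbers of calls were 12 for day 18, 8 for day 6, 0 in the ovary and the oviduct, 27 against the oviduct and 34 against the ovary. None of the calls on named genes changed direction under an alternative that gave it an adjusted p, and other values were not checked for this. Of 49 calls on named genes, 36 were kept in every alternative, and ADARB1 and KIAA1549L (against the ovary) and CD38 (against the ovary) were lost in 13, 11 and 13. The other losses were in 1 to 6 alternatives and concerned FJX1, MDH1, OPALIN, PTK2B, RAP1GAP, ENSSSCG00000004623 and ENSSSCG00000009871.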
